A study of Homo sapiens with 7 samples.

Results

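KRT17, TNFRSF12A and C11orf96 were 3 of the 19978 genes quantified by poly(A)-selected RNA sequencing in HEK-293, an established human embryonic kidney cell line. They were chosen by their transcript levels after incubation with SRPIN340, which were higher than in control. Their values and calls in that comparison are therefore a description and no test. All 3 passed the filter on low counts, as did 14863 genes in total. Their levels were compared across all 7 libraries of the study.

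The control group (2 samples) was kept for 48 h in DMEM of pH 7.4 with the vehicle DMSO. The SRPIN340 group (2 samples) had 48 h in DMEM of pH 7.4 with 10 µM SRPIN340 and, by the study's methods, DMSO. The acidosis group (3 samples) was kept for 48 h in acidified DMEM of pH 6.6 with DMSO. SRPIN340 is an inhibitor of the SR protein kinases SRPK1 and SRPK2, which phosphorylate the serine- and arginine-rich splicing factors, and the study set it beside acidosis to compare low pH with loss of that phosphorylation. The protocol text in the labels gives the compound a different number in its name, whereas the titles, treatment labels and design text name SRPIN340. Each condition was a single dose or pH at a single time in a single cell line, and no sample combined acidosis with SRPIN340.

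Library totals were 21788457 to 24110460 estimated counts in the control and SRPIN340 libraries and 13615816 to 21370143 in the acidosis libraries. Levels are given as CPM, the usual measure of a gene's share of the library total, with the totals scaled by the TMM method. Of 9 marker genes of the HEK-293 line, which include the renal transcription factor PAX2, 8 passed the filter, and their summed level was 1220 to 1310 CPM in control, 1250 to 1300 CPM with SRPIN340 and 3220 to 3240 CPM in acidosis. VIM held most of that sum, at 867 ± 34.7 CPM in control (SD, n = 2) and 2710 ± 36.2 CPM in acidosis (n = 3). In acidosis VIM and NEFM rose, by 1.65 each on the log2 scale, and PAX2 fell by 1.93 (edgeR). SRPK1 was at 253 ± 17 CPM in control (SD, n = 2) and 283 ± 4.1 CPM with SRPIN340 (n = 2), and SRPK2 at 94.9 ± 4.5 and 89.7 ± 2.25 CPM. These transcript levels do not report on kinase activity, which was not measured in these libraries.

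Keratins are the intermediate filament proteins of epithelial cells, and a filament is built from pairs of an acidic type I and a basic type II keratin. KRT17 encodes a type I keratin known from hair follicles and other skin appendages and from wounded or stressed epidermis. TNFRSF12A encodes Fn14, a small receptor of the TNF receptor superfamily whose ligand is the cytokine TWEAK, the product of TNFSF12. Fn14 has no death domain and signals through TRAF adaptors to the canonical and noncanonical NF-κB pathways, and it is known as a receptor that is induced in injured tissue. C11orf96 is an open reading frame of chromosome 11 whose protein is little characterised.

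The genes lie on 3 different chromosomes of the GRCh38 build. KRT17 (ENSG00000128422.18) occupies chr17:41619442-41624842 on the minus strand, and its canonical transcript has 8 exons and 1517 nt. TNFRSF12A (ENSG00000006327.14) occupies chr16:3018445-3022383 on the plus strand, with 4 exons and 977 nt in its canonical transcript. C11orf96 (ENSG00000187479.9) occupies chr11:43942637-43943878 on the plus strand and is a single exon of 1242 nt, of which 366 nt are coding.

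KRT17 resembles other type I keratins in sequence, which bears on how reads were divided among them. Of the 1487 stretches of 31 bases in its canonical transcript, 592 (39.8%) also occurred in transcripts of another gene, and 8.3% in transcripts of another protein-coding gene. The most stretches were shared with a long noncoding RNA (ENSG00000290656, 21.0%) and the pseudogenes KRT17P1 (20.6%) and KRT17P3 (19.2%), which have no row in the table used here. KRT14 and KRT16, keratins of basal and of stressed epidermis, shared 84 and 63 stretches. A window of 90 nt in exon 6, within the coding sequence, is printed here with capitals for the bases that differ from KRT17. It was chosen for the most stretches of 31 bases shared with KRT14 or KRT16. The 3 keratins are nearly the same in it, but only KRT16 has identical runs of 31 bases with KRT17 there. All 3 lie on the minus strand of chromosome 17 (GRCh38) and are printed 5′ to 3′, KRT17 from chr17:41620671-41620760, KRT14 from chr17:41583247-41583336 and KRT16 from chr17:41610343-41610432.
KRT17: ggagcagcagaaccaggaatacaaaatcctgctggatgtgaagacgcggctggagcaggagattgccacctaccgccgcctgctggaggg
KRT14: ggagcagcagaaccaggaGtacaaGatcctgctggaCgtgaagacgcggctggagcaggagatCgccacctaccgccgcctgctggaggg
KRT16: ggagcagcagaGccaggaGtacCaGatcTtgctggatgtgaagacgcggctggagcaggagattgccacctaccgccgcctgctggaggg

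KRT14 differed from KRT17 at 4 bases of the window and KRT16 at 5. KRT14 had 3 estimated counts in acidosis replicate 1 and 0 in the other libraries, and KRT16 had at most 5 counts in any library. The counts of KRT17 were far above these, so few reads were assigned to its nearest protein-coding relatives. How many reads of the pseudogenes or the noncoding RNA were assigned to KRT17 was not tested. TNFRSF12A shared 0 of 947 such stretches with another gene. C11orf96 shared 62 of 1212 (5.1%), all with an antisense noncoding RNA (ENSG00000244953), and the strand setting of the quantification is not given in the sources used here.

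KRT17 was at 12.0 and 8.64 CPM in the control libraries, at 34.4 and 23.8 CPM with SRPIN340 and at 807, 750 and 697 CPM in acidosis. The 3 groups did not overlap, and both SRPIN340 libraries lay between the control and the acidosis libraries. The estimated counts behind these levels were 333 and 246 in control, 932 and 626 with SRPIN340, and 13592, 8169 and 8103 in acidosis.

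TNFRSF12A was at 5.3 and 4.39 CPM in control, at 11.6 and 9.64 CPM with SRPIN340 and at 207, 175 and 195 CPM in acidosis. The order of the groups was that of KRT17, again with no overlap. Its estimated counts were 147 and 125 in control, 316 and 254 with SRPIN340, and 3492, 1911 and 2273 in acidosis.

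C11orf96 had the lowest levels of the 3 genes. It was at 2.34 and 2.32 CPM in control, at 6.93 and 5.54 CPM with SRPIN340 and at 113, 96.1 and 85.6 CPM in acidosis. The groups were separate here as well, with the control libraries almost equal to each other. The control levels of this gene rested on 65 and 66 estimated counts, the smallest among the 3 genes. Its counts were 188 and 146 with SRPIN340 and 1903, 1047 and 995 in acidosis.

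**Figure D1:**
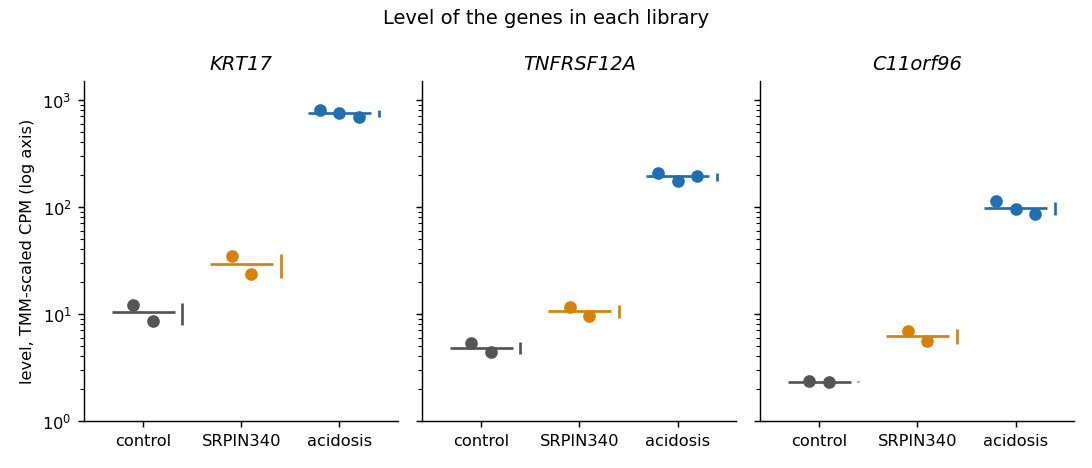
Level of KRT17, TNFRSF12A and C11orf96 in each of the 7 libraries, in CPM on a log axis, with a point per library, a horizontal line at the group mean and a vertical line beside it for the SD (control n = 2, SRPIN340 n = 2, acidosis n = 3). In each gene the SRPIN340 libraries lie above the control libraries and far below the acidosis libraries, as for KRT17 at 23.8 to 34.4 CPM between 8.64 to 12.0 and 697 to 807 CPM.

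With SRPIN340, the mean level of KRT17 was 29.1 ± 7.49 CPM (SD, n = 2) against 10.3 ± 2.38 CPM in control (n = 2), a fitted log2 fold change of 1.5 (SE 0.19), or 2.82-fold. C11orf96 was at 6.24 ± 0.981 against 2.33 ± 0.0174 CPM, a log2 fold change of 1.42 (SE 0.197), or 2.67-fold. TNFRSF12A was at 10.6 ± 1.42 against 4.84 ± 0.642 CPM, a log2 fold change of 1.14 (SE 0.151), or 2.2-fold, the smallest of the 3. A gene was called when its adjusted p in edgeR (Benjamini-Hochberg) was below 0.05 and its log2 fold change beyond 1 in either direction. All 3 were past these limits, as their selection fixed, in a comparison that called 19 genes, or 0.128% of those tested, higher. With control replicate 2 or SRPIN340 replicate 1 left out, 0 of the 3 passed these limits, and without control replicate 1, TNFRSF12A and KRT17 did (2 of 3). More cells that express a gene and more of its RNA per cell cannot be told apart in such bulk samples.

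The gaps between the groups were narrower than the fold changes of the means. The lower SRPIN340 library was 1.98 times the higher control library for KRT17, 1.82 times for TNFRSF12A and 2.37 times for C11orf96. SRPIN340 replicate 1 was above replicate 2 for all 3 genes, by 1.45 times for KRT17, 1.21 times for TNFRSF12A and 1.25 times for C11orf96. The control libraries differed by 1.39 times for KRT17, 1.21 times for TNFRSF12A and 1.01 times for C11orf96. In KRT17, the spread within either group was thus a sizeable part of the gap between them.

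The 19 genes called higher with SRPIN340 differed in where their acidosis libraries lay. RNASE4, a secreted ribonuclease, was at 1.3 and 0.948 CPM in control, 6.63 and 9.72 CPM with SRPIN340 and 2.43, 1.84 and 2.41 CPM in acidosis. BNC1, which encodes the zinc finger protein basonuclin, was at 5.94 and 5.86 CPM in control, 13.2 and 14.5 CPM with SRPIN340 and 3.15, 4.04 and 4.13 CPM in acidosis. Both were highest with SRPIN340. In 12 of the 19 genes every acidosis library was below every SRPIN340 library, and in 6 every one was above. In addition to the 3 members, those 6 were ANKRD1, an ankyrin repeat protein, the chemokine CXCL8 and PLAU, the urokinase. Being called higher with SRPIN340 itself favours acidosis libraries below the SRPIN340 libraries. The share of all tested genes with either order was not counted, so the split of the 19 is a description only. ANKRD1 was at 1.8 and 2.25 CPM in control, 8.55 and 6.45 CPM with SRPIN340 and 1270, 1290 and 1340 CPM in acidosis, so this order of the groups was not particular to KRT17, TNFRSF12A and C11orf96. KRT17, TNFRSF12A and C11orf96 held places 3, 4 and 5 by edgeR p among the 19 genes called higher. That comparison chose them, so their places in it are a description and no test. By fold change with SRPIN340 they stood at places 100 (KRT17), 112 (C11orf96) and 204 (TNFRSF12A) from the highest of all tested genes.

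In acidosis, all 3 genes were called higher than in control, in a comparison that called 2145 genes, or 14.4% of those tested, higher. KRT17 rose from 10.3 ± 2.38 (n = 2) to 751 ± 55.2 CPM (SD, n = 3), which was 6.19 on the log2 scale (SE 0.202, edgeR quasi-likelihood test, adjusted p = 1.57e-08), or 72.9-fold. TNFRSF12A rose from 4.84 ± 0.642 to 193 ± 16.1 CPM, a log2 fold change of 5.32 (SE 0.146, edgeR adjusted p = 7.58e-09), or 39.8-fold. C11orf96 rose from 2.33 ± 0.0174 to 98.2 ± 13.8 CPM, a log2 fold change of 5.40 (SE 0.184, edgeR adjusted p = 1.93e-08), or 42.1-fold. The control libraries are the same as those of the SRPIN340 comparison that chose the genes, so a low control value would raise both. Each gene stayed called in all 7 fits that left out a library and all 6 other alternatives, the highest adjusted p being 2.16e-06.

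These changes were among the larger ones of the data. From the highest log2 fold change down, KRT17 was at place 38, C11orf96 at place 53 and TNFRSF12A at place 58 of 14863 genes. The median log2 fold change of all tested genes was -0.052 in acidosis and 0.002 with SRPIN340. When libraries were scaled by their totals alone, the median of all genes in acidosis moved to -0.626, and the log2 fold changes of KRT17, TNFRSF12A and C11orf96 were 5.61, 4.74 and 4.82.

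**Figure D2:**
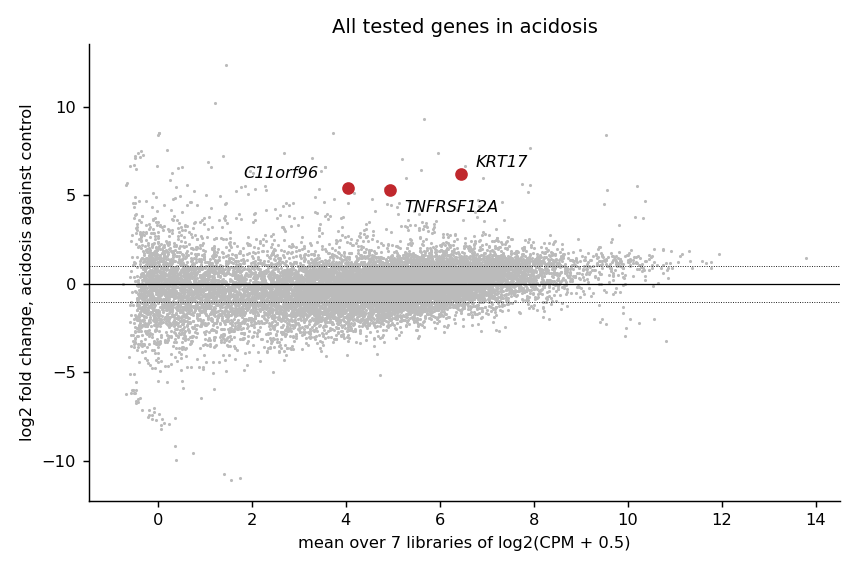
Log2 fold change of each of the 14863 tested genes in acidosis against control (vertical axis) by its mean over the 7 libraries of log2(CPM + 0.5) (horizontal axis), with KRT17, TNFRSF12A and C11orf96 in red and dotted lines at the fold limit of 1. The 3 genes, at 6.19, 5.32 and 5.40, lie above most of the cloud, whose median is -0.052.

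The lowest acidosis library was 58.1 times the highest control library for KRT17, 33.1 times for TNFRSF12A and 36.5 times for C11orf96. It was also above the highest SRPIN340 library, by 20.3, 15.1 and 12.3 times. Within acidosis the highest and lowest libraries differed by 1.16 times for KRT17, 1.18 times for TNFRSF12A and 1.32 times for C11orf96. The separation of acidosis from both other groups was therefore much wider than the spread between its libraries. As a description, the fitted log2 fold change of acidosis against SRPIN340 was 4.69 for KRT17, 4.18 for TNFRSF12A and 3.98 for C11orf96.

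Per kb of canonical transcript, the order of the 3 genes was the same in every library. KRT17 was at 6.8, 19.2 and 495 CPM per kb in control, SRPIN340 and acidosis (group means), TNFRSF12A at 4.96, 10.9 and 197, and C11orf96 at 1.88, 5.02 and 79.1. The ratio of KRT17 to TNFRSF12A per kb was 1.46 and 1.27 in control, 1.9 and 1.59 with SRPIN340 and 2.51, 2.75 and 2.3 in acidosis, and the groups did not overlap. The ratio of TNFRSF12A to C11orf96 was 2.87 and 2.41 in control, 2.14 and 2.21 with SRPIN340 and 2.33, 2.32 and 2.9 in acidosis, where control and acidosis overlapped. KRT17 thus moved further from TNFRSF12A across the conditions than TNFRSF12A did from C11orf96.

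The other keratins were mostly silent in these cells. Of 48 keratin genes besides KRT17, 41 were under 1 CPM in every library and 8 passed the filter. By mean CPM per kb, KRT17 held place 5 among all keratins in control, place 4 with SRPIN340 and place 1 in acidosis. KRT8 and KRT18, the pair of simple epithelia, were at 167 and 86.4 CPM per kb in control, 166 and 85.8 with SRPIN340, and 248 and 72.2 in acidosis. KRT19, a type I keratin of simple epithelia and stem cells, was at 67.7, 61.6 and 46.9 CPM per kb. The keratins that were most abundant in control thus differed far less between the groups than KRT17.

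KRT17 made up 4.73% and 3.12% of the summed per-kb level of the 5 tested type I keratins in the control libraries, 12.0% and 8.93% with SRPIN340 and 74.5%, 74.8% and 72.0% in acidosis. It went from a minor to the main type I keratin transcript. The summed per-kb level of type I keratins was 1.03 and 1.06 times that of the 3 tested type II keratins in control, 1.13 and 1.06 times with SRPIN340 and 2.99, 2.67 and 2.44 times in acidosis. The 2 types were thus near balance at pH 7.4 and unequal at pH 6.6.

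Keratins and the proteins that anchor them, 63 genes of which 21 were tested, had a median log2 fold change of -0.04 in acidosis against -0.052 for all tested genes. In acidosis 2 of the 21 (9.52%) rose and 2 (9.52%) fell, where 14.4% of all tested genes were called higher and 19.1% lower. KRT10, the type I keratin of differentiating epidermis, rose from 28.9 ± 2.39 to 119 ± 6.65 CPM (log2 fold change 2.04, SE 0.111, edgeR adjusted p = 2.71e-07), and KRT80, a type II keratin, from 1.28 ± 0.375 to 4.09 ± 0.533 CPM (1.67, adjusted p = 0.00152). KRT222, a keratin-like gene, fell from 4.03 ± 0.203 to 0.547 ± 0.287 CPM (-2.81, adjusted p = 0.000106), and SFN, the 14-3-3 protein of epithelia, from 5.43 ± 0.778 to 1.88 ± 0.31 CPM (-1.53, adjusted p = 0.000407). None of these changes was as large as that of KRT17. With SRPIN340, 1 of the 21 (4.76%) rose, where 0.128% of all tested genes were called higher. It was PPL, encoding the desmosomal plakin periplakin, at 13.1 and 15.9 CPM in control and 28.0 and 30.7 CPM with SRPIN340 (1.02, edgeR adjusted p = 0.0354). In acidosis PPL was at 13.4, 11.3 and 17.5 CPM, overlapping the control libraries.

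**Figure D3:**
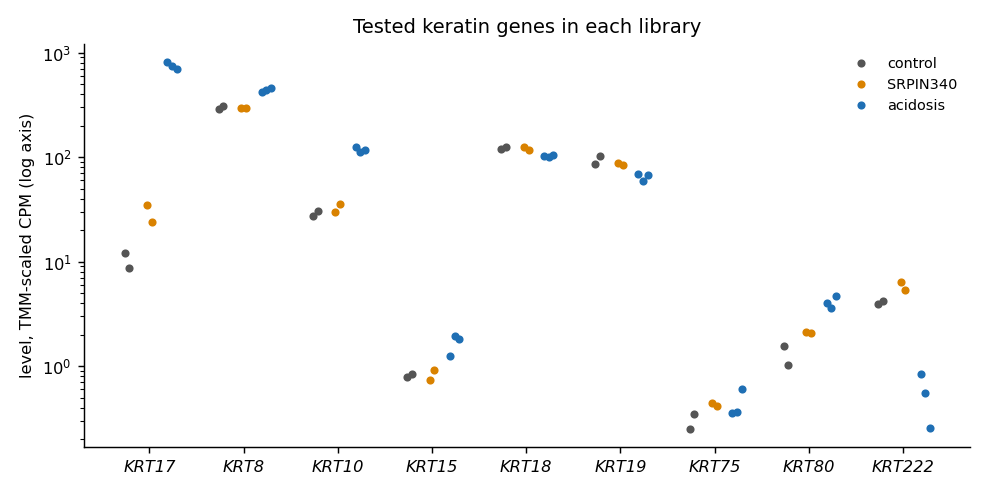
Level of KRT17 and the 8 other tested keratins in CPM, not divided by length, on a log axis, with a point per library and colours for control (n = 2), SRPIN340 (n = 2) and acidosis (n = 3). KRT17 goes from 8.64 and 12.0 CPM in control to 697 to 807 CPM in acidosis, whereas KRT10 goes from 27.2 and 30.5 to 113 to 126 CPM and KRT222 falls.

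Markers of cells in which KRT17 is better known were examined beside it. Of 12 markers of epidermal keratinocytes, 2 were at 0 in every library and 6 at 3 counts or fewer in every library. KRT14 had at most 3 counts in any library, as given above, and KRT5, its type II partner, at most 2. The summed level of the 12 was 44.9 to 49.4 CPM in control, 61.4 to 63.8 CPM with SRPIN340 and 144 to 165 CPM in acidosis. In acidosis 14.4% of all tested genes were called higher and 19.1% lower. Of the 5 tested keratinocyte markers, KRT10 and LAMB3 rose in acidosis and SFN fell, and KRT10, at 113 to 126 CPM, held most of the sum in acidosis. Of 10 fibroblast markers, 7 were tested, 2 rose and 2 fell in acidosis, and their summed level was 47.9 to 48.6, 50.3 to 60.4 and 84.1 to 97.3 CPM in the 3 groups. With SRPIN340, 0 of these tested markers of either type were called by edgeR or DESeq2, with 0.323% of all tested genes called by edgeR, and LAMB3, COL3A1 and LUM were higher at an unadjusted p under 0.05. The defining basal keratins were at or near 0 where KRT17 was at its highest. The part of the other markers in the levels of the 3 genes was not tested.

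The ligand of Fn14 was not called in either comparison. TNFSF12 was at 7.06 and 7.76 CPM in control, 8.48 and 8.39 CPM with SRPIN340 and 8.91, 6.89 and 9.97 CPM in acidosis. Its log2 fold change in acidosis was 0.22 (edgeR adjusted p = 0.34) and turned to -0.36 with scaling by library totals alone, and with SRPIN340 it was 0.19 (adjusted p = 0.699). The acidosis libraries lay on both sides of the control libraries.

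The ligand, adaptors, kinases, NF-κB subunits and inhibitors and other genes of TWEAK and Fn14 signalling formed a list of 25 genes, 24 of them tested. In acidosis 10 (41.7%) were called higher and 4 (16.7%) lower, where 14.4% and 19.1% of all tested genes were, and the median log2 fold change was 0.51. With scaling by library totals alone 7 were called higher and 6 lower. RELB, the NF-κB subunit of the noncanonical pathway, rose from 2.33 ± 0.0677 to 39.4 ± 2.13 CPM (log2 fold change 4.08, SE 0.154, edgeR adjusted p = 3.31e-08). NFKB2, the precursor of its partner, rose from 11.6 ± 2.02 to 89.8 ± 19.2 CPM (2.95, SE 0.198, adjusted p = 9.63e-07). The inhibitor NFKBIA rose from 18.2 ± 0.472 to 151 ± 6.67 CPM (3.05, SE 0.118, adjusted p = 3.62e-08), and the subunit REL from 21.4 ± 3.96 to 126 ± 4.45 CPM (2.56, SE 0.121, adjusted p = 1.17e-07). These 4 genes were named for the largest changes of the list, a choice that favours separate groups. In each of them every acidosis library was above every control and SRPIN340 library.

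The other called genes of the list had smaller changes. The inhibitors NFKBIB and NFKBIE (2.21 and 1.18 on the log2 scale), the subunit RELA (1.61), the ubiquitin ligases BIRC3 and TRAF6 (1.99 and 1.47) and the kinase MAP3K14 (1.17), which starts the noncanonical pathway, were higher. Of these, TRAF6, MAP3K14 and NFKBIE were no longer called with scaling by totals alone. RIPK1, a kinase of TNF receptor complexes, fell from 51 ± 1.16 to 11 ± 2.06 CPM (-2.22, edgeR adjusted p = 6.41e-07), and TAB1, MAP3K7 and TRAF5 fell by 1.61, 1.42 and 1.21 on the log2 scale. Inhibitors and subunits of NF-κB were thus among the genes that rose, and upstream kinases and adaptors among those that fell as well as those that rose.

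With SRPIN340, 0 of the 24 genes were called by edgeR or by DESeq2, against 0.323% of all tested genes called in either direction by edgeR. At an unadjusted p under 0.05, 4 were higher (BIRC3, NFKB2, REL and RELB) and 0 lower. RELB was at 2.38 and 2.28 CPM in control and 3.94 and 4.25 CPM with SRPIN340 (log2 fold change 0.81, edgeR adjusted p = 0.0395), and REL at 24.2 and 18.6 against 33.1 and 32.2 CPM (0.61, edgeR adjusted p = 0.0407). In both, the groups did not overlap, and the changes were under the fold limit. The levels of RELB and REL with SRPIN340 were, like that of TNFRSF12A, between control and acidosis.

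Of the 28 other receptors of the TNF receptor superfamily, 18 were tested. In acidosis 5 (27.8%) rose and 5 (27.8%) fell, where 14.4% and 19.1% of all tested genes did, and the median log2 fold change was 0.13 against -0.052 for all tested genes. With scaling by library totals alone the numbers were 3 and 8. TNFRSF9, which encodes the costimulatory receptor 4-1BB, rose from 2.84 ± 0.602 to 17.5 ± 7.34 CPM (2.63, SE 0.368, edgeR adjusted p = 0.000146), and RELT from 7.7 ± 0.0653 to 39.1 ± 2.74 CPM (2.35, adjusted p = 5.15e-07). NGFR, the low-affinity neurotrophin receptor, rose from 3.15 ± 0.0682 to 11.6 ± 0.28 CPM (1.88, adjusted p = 2.16e-05). The TRAIL receptor TNFRSF10B rose from 98.4 ± 2.88 to 290 ± 17.2 CPM (1.56, adjusted p = 1.67e-07), a change that was 0.99 with scaling by totals alone and then under the fold limit. The fold change of TNFRSF12A was larger than that of any of these.

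With SRPIN340, 0 of the 18 receptors were called by edgeR, which called 0.323% of all tested genes, and 1 by DESeq2, which was TNFRSF9. It was at 2.41 and 3.26 CPM in control and 7.04 and 6.79 CPM with SRPIN340 (log2 fold change 1.28, edgeR adjusted p = 0.125). At an unadjusted p under 0.05, 2 receptors were higher (TNFRSF9 and TNFRSF1A) and 1 lower (LTBR). The receptor of tumour necrosis factor, TNFRSF1A, was at 38.0 and 39.4 CPM in control and 51.1 and 49.6 CPM with SRPIN340, and fell in acidosis to 16.7, 15.7 and 15.8 CPM. TNFRSF9 and TNFRSF12A thus shared the order of the groups, and TNFRSF1A did not.

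**Figure D4:**
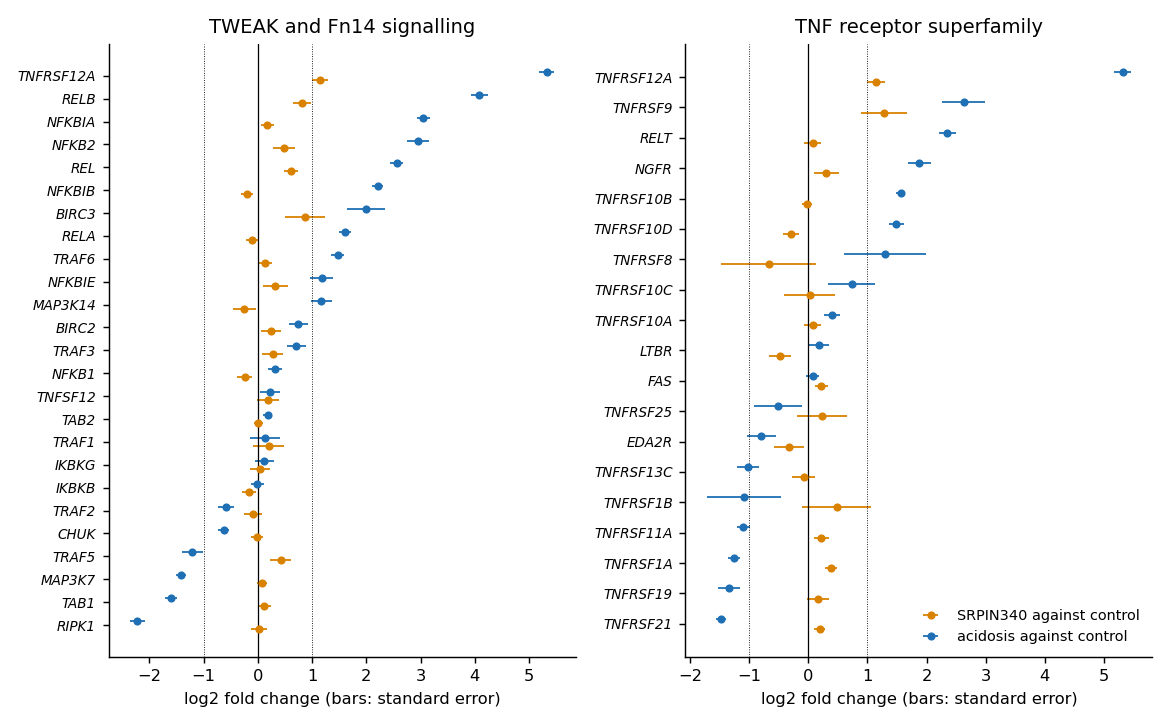
Log2 fold changes against control of TNFRSF12A, of the tested genes of TWEAK and Fn14 signalling and of the other tested receptors of the superfamily, in acidosis (blue) and with SRPIN340 (orange), with bars for the SE and dotted lines at the fold limit of 1. TNFRSF12A lies at 5.32 in acidosis, above RELB at 4.08 and TNFRSF9 at 2.63, while its ligand TNFSF12 lies at 0.22.

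Genes close to the 3 members on their chromosomes were compared with them. Within 200 kb of the start of KRT17, 7 of 16 genes were tested and 2 were called higher in acidosis, where 14.4% of all tested genes were. EIF1, a translation initiation factor 64.0 kb away, rose from 372 ± 20.2 to 2150 ± 131 CPM (log2 fold change 2.53, edgeR adjusted p = 8.31e-09), and FKBP10, a collagen chaperone 187.8 kb away, by 1.00 (adjusted p = 8.9e-06), which was 0.43 and not called with scaling by totals alone. The neighbouring keratins KRT19 and KRT15, 96.5 and 102.3 kb away, had log2 fold changes of -0.53 and 1.00, of which the latter missed the threshold (adjusted p = 0.0635). The others were HAP1 (-0.85), JUP (-0.14) and P3H4 (0.07).

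Within 200 kb of TNFRSF12A, 13 of 20 genes were tested, and 4 were called higher and 2 lower in acidosis, beside 14.4% and 19.1% of all tested genes. IL32, a cytokine gene 46.9 kb away, was at 1.55 and 2.11 CPM in control, 2.91 and 2.96 CPM with SRPIN340 and 14.3, 11.1 and 13 CPM in acidosis (log2 fold change 2.80, edgeR adjusted p = 4.14e-06). Like TNFRSF12A it was lowest in control and highest in acidosis. The claudin gene CLDN9 (2.41, adjusted p = 0.0168) was under 1 CPM in every library, and PKMYT1 (1.34) and THOC6 (1.23) were not called with scaling by totals alone. FLYWCH1 (-1.79) and ZNF213 (-1.22) fell. The closest gene, CLDN6 at 1.6 kb, had a log2 fold change of 0.21 (edgeR adjusted p = 0.789), which turned to -0.36 with scaling by totals alone. CLDN6 too was under 1 CPM in every library, so its change is poorly measured.

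Within 200 kb of C11orf96, 3 of 4 genes were tested. EXT2, an enzyme of heparan sulfate synthesis 153.0 kb away, was called higher in acidosis (1.09, edgeR adjusted p = 1.06e-05) but not with scaling by totals alone (0.52), and ALKBH3 and ACCS had log2 fold changes of -0.87 and -0.59. With SRPIN340, 0 of the 23 tested neighbours of the 3 genes were called by edgeR or DESeq2, where edgeR called 0.323% of all tested genes, and 1, IL32, was higher at an unadjusted p under 0.05. The fold change of each member in acidosis was larger than that of any tested neighbour.

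**Figure D5:**
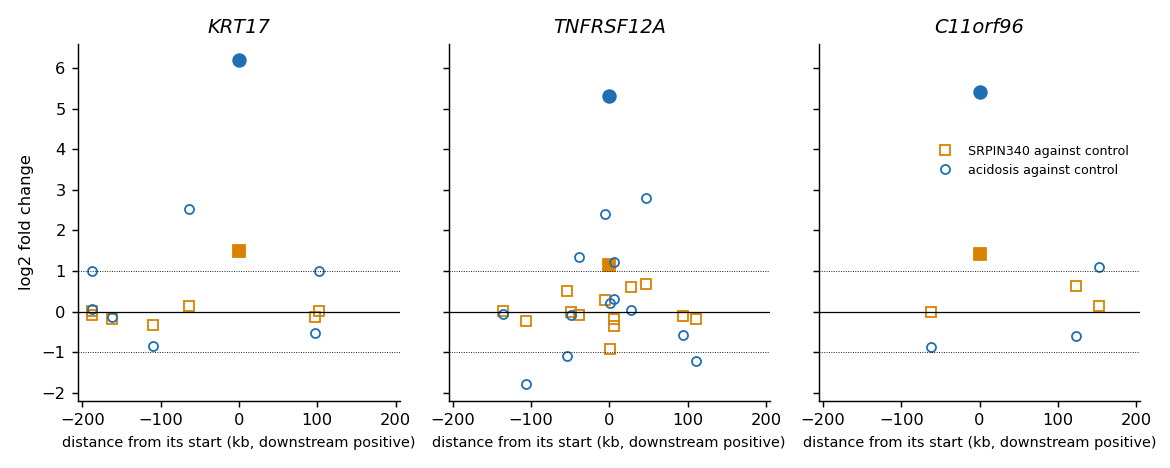
Log2 fold change against control, in acidosis (circles) and with SRPIN340 (squares), of KRT17, TNFRSF12A and C11orf96 (filled) and the tested genes around them (open), by distance in kb from the start of the member, positive downstream of it. In acidosis the members, at 6.19, 5.32 and 5.40, stand above all tested neighbours, of which IL32 (2.80) and EIF1 (2.53) are the highest.

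The genes whose pattern over the 7 libraries was most like that of each member were found by the root mean square difference of centred log2 levels, which weighs the size of the acidosis step as well as the order of the libraries. C11orf96 and TNFRSF12A were each other's closest genes among all those tested, at a difference of 0.156. For KRT17 the closest were the stress-induced transcription factor ATF3 (0.395), TNFRSF12A (0.42), the mRNA decay factor ZFP36 (0.429), the nuclear receptor NR4A1 (0.441) and the transcription factor MAFF (0.477), and C11orf96 was at place 7 (0.482). For TNFRSF12A, C11orf96 was followed by FOSL1, an AP-1 subunit (0.278), the receptor GPR3 (0.319), the adaptor SH2D3C (0.322) and NR4A1 (0.327). For C11orf96, TNFRSF12A was followed by SH2D3C (0.315), FOSL1 (0.357), the phosphatase DUSP8 (0.363) and the small GTPase GEM (0.368). The control and SRPIN340 values that chose the members are part of this likeness. In control the mean was 0.356 CPM for GPR3 and 0.622 CPM for SH2D3C, near the 0.5 CPM added before taking logs. That addition makes the steps of such low genes smaller, so their places depend on it.

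The values of the similar genes in both comparisons were as follows, the SRPIN340 values of the members being high by selection. In ATF3 the log2 fold changes in acidosis and with SRPIN340 were 5.62 and 0.45, in ZFP36 5.97 and 0.45, and in NR4A1 5.45 and 0.49. In MAFF they were 6.61 and 0.61, in FOSL1 5.34 and 0.58, and in GPR3 6.26 and 0.69. They were 5.32 and 1.15 in SH2D3C, 4.55 and 0.63 in DUSP8, and 4.57 and 0.73 in GEM. By Pearson correlation, which ignores the size of the step, the 5 nearest genes shared 1 name with these lists for KRT17 and 0 for TNFRSF12A and C11orf96.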

How the data were processed

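Poly(A)-selected RNA from 7 HEK-293 samples was sequenced. Per the labels and the methods of the study, the authors trimmed reads with Trimmomatic 0.39 and Trim Galore 0.6.6, ran Salmon 1.5.1 on the Gencode transcriptome of GRCh38.p13 and used tximport, with an option that is not given, to obtain gene values. The authors deposited estimated counts for each gene, with fractions and without normalization across samples. The methods name replicates inside every biological repeat while each sample has a single column, so p-values measure the spread between these samples only.

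After rounding, the quasi-likelihood test of edgeR 4.0.16 (R 4.3.3) was run with TMM and filterByExpr in a single fit of all 7 samples. Calls needed a p below 0.05 after Benjamini-Hochberg adjustment over the 14863 tested genes and a log2 fold change beyond 1 in either direction. The SE was derived from the test statistic. DESeq2 1.42.0, other scalings, no filter, a replicate block, 2 groups only and leaving out each library were alternatives. The tests were checked on simulated counts with few changed genes, as many up as down. Acidosis changed far more genes, so that check does not cover how scaling affects the acidosis calls.

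The 3 genes and the gene lists were chosen with earlier results of these data known. Named genes were, by rule, the 3 members, 5 genes of the most similar pattern for each (log2 of CPM plus 0.5), the ligand and close paralogs, up to 4 called genes with the largest acidosis change in each list, tested genes within 200 kb, the genes ordered next to the members with SRPIN340, SRPK1 and SRPK2, and leading markers. Genes named beyond it (the remaining called list genes, PPL, the abundant keratins, the markers that moved, ANKRD1, CXCL8, PLAU, TNFRSF1A and LTBR) were chosen after their values were seen. A called marker of the HEK-293 line is not reported here. Positions and sequences are from GENCODE release 44 (GRCh38), which matched 19977 of 19978 identifiers. Shared stretches were counted in its transcripts with Python 3.11.15, at 31 bases. Promoter sequences were not used here. Figures were drawn with matplotlib 3.10.9.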

Additional observations from a re-analysis of the deposited data

How the results depend on the processing

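In acidosis, KRT17, TNFRSF12A and C11orf96 kept their direction and call in all 39 alternative values. Their log2 fold changes ranged over 5.95 to 6.44, 5.17 to 5.45 and 5.28 to 5.49 with a library left out, and were lowest with scaling by totals alone. With SRPIN340 the values with a library left out were 1.21 to 1.75, 0.99 to 1.28 and 1.25 to 1.57, and the other settings gave 1.49 to 1.54, 1.13 to 1.18 and 1.41 to 1.46.

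Counts over all genes moved more. With scaling by totals alone, the acidosis calls were 815 higher and 5202 lower in place of 2145 and 2840, the TNF receptor list had 3 higher and 8 lower, and the keratin list had 7 lower. The SRPIN340 calls, 19 higher and 29 lower, became 33 higher with 2 groups only. Leaving out a library gave 3 to 30 higher and 8 to 36 lower. The higher calls were 9 and 3 without control replicates 1 and 2, 3 and 6 without SRPIN340 replicates 1 and 2, and 30 without acidosis replicate 2, and the lower calls 8 and 18 without SRPIN340 replicates 1 and 2. The cause was not tested.

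Deviations of same-numbered samples from their group means were correlated across 11412 genes. The correlations were -0.083 (control and SRPIN340), -0.224 (control and acidosis) and 0.107 (SRPIN340 and acidosis). Because each group had few samples and no chance level was set, these values cannot show whether same-numbered samples were handled together. With the replicate block, 5 genes were called higher with SRPIN340, and the acidosis values of the 3 genes were 6.26, 5.30 and 5.48.

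Of the 3 genes, depth limits C11orf96 most, with 65 and 66 counts in control, and groups of 2 and 3 libraries limit every SD. Some called list genes had fewer counts, such as KRT222 with 14, 6 and 3 in the acidosis libraries.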
